A study of Mus musculus with 20 samples.

Results

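Smpdl3b, Muc4, Themis3 and Opn1mw are 4 protein-coding genes whose messenger RNA was much lower in mouse muscle libraries labelled as lacking BMAL1 than in vehicle libraries. They were picked by gene symbol from the 21844 genes of the count table, and the choice was made on their strong loss in the columns labelled knockout. The difference between knockout and vehicle is therefore given for them as a description, with no test. The choice used no numeric threshold. All 4 passed the filter on low values (5 or more of the 20 libraries at 1 CPM or above, where CPM is the count scaled to a common library total), as did 14359 genes in all, and all 4 passed it through the vehicle libraries.

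The study measured RNA by sequencing in hindlimb muscle of mice. It compared vehicle muscle with muscle labelled as lacking BMAL1, in sedentary mice and in mice trained on a treadmill for 6 weeks. Every mouse, vehicle mice included, is listed as Cre+:iMSBmal1 fl/fl, which means a floxed Bmal1 gene together with a Cre recombinase that acts in muscle and has to be switched on. The 4 groups were vehicle without training, iMSBmal1KO (inducible muscle-specific knockout) without training, vehicle with training and iMSBmal1KO with training, at 5 libraries each. Collection is given as 48 h post by the sample labels and as 47 h after the last bout by the design text, and the muscle is called gastrocnemius in some label fields and tibialis anterior in another. Ages and the agent that switches on the Cre are not given in the sources used here. The recombinase acts in muscle fibres, so other cells of the tissue keep their Bmal1 gene.

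BMAL1 (gene symbol Arntl in the table) pairs with CLOCK and binds the DNA sequence called an E-box to drive transcription of clock genes and of many genes particular to a tissue. Muscle has such a clock, and its output includes genes of metabolism and of the contractile apparatus. The 4 genes described here are best known from elsewhere. Smpdl3b encodes a membrane-anchored relative of acid sphingomyelinase, studied in kidney podocytes and macrophages. Muc4 encodes a membrane-bound mucin of epithelia that can bind the receptor ERBB2. Themis3 belongs to the family of THEMIS, an adaptor that T cell development in the thymus needs. Opn1mw encodes the cone opsin tuned to middle wavelengths.

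The promoters are shown because the factor targeted by the knockout is a DNA-binding protein, and the question is which of these promoters carry its core motif. RefSeq sequence of build GRCm38.p6 from 250 bases before to 50 bases after the annotated start was found for 3 of the 4 genes, and Themis3 is named only. All run 5′ to 3′ on the strand of the gene, and capitals mark the E-box CACGTG.
Smpdl3b, chr4:132757122-132757421, minus strand: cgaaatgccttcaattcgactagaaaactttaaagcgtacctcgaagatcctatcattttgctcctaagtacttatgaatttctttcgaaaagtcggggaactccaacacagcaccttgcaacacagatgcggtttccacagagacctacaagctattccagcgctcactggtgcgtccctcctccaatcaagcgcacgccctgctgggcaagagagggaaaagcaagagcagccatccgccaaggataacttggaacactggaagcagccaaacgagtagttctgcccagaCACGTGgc
Muc4, chr16:32735636-32735935, plus strand: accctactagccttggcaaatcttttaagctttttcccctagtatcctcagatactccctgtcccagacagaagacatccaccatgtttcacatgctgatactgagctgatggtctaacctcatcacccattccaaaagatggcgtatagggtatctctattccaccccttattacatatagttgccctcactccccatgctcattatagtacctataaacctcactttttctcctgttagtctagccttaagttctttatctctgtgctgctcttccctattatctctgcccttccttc
Opn1mw, chrX:74127216-74127515, plus strand: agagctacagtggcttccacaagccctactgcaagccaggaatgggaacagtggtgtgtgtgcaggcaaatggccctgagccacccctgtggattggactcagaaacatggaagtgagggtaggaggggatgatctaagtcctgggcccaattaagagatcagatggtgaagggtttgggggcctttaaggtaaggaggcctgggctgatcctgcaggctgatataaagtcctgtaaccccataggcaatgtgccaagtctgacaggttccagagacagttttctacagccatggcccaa
The Smpdl3b window had a GC content of 50% and 1 E-box, which begins at base 43 after the start and lies at chr4:132757124-132757129. The letters of CACGTG read the same on both strands. They occur in 2349 of 32851 mouse promoter windows of this length (7.15%). The Muc4 window (43.7% GC) and the Opn1mw window (53.0% GC) held neither CACGTG nor the related CACGTT on either strand. CACGTT occurs in 1539 of the 32851 windows (4.68%) and does not overlap CACGTG. A match is a description of these letters and not a measured binding site.

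Total estimated counts ran from 10610331 to 19153522 per library. In the libraries labelled knockout trained 1 and 4, noise at high counts was 1.25 times the pair's own noise at low counts. In 3 and 5 it was 0.873 times, and the next pair of libraries had 2.31 times, against a limit of 1.5. The rule compares a pair with itself, so it does not show that the libraries differ by sampling noise alone. Each pair was counted as 1 sample, which leaves n = 3 in that group and 18 samples in all. The SDs of that group rest on this rule. The library vehicle trained 2 stood apart, with 4356 genes more than 2-fold from the other samples of its group, against at most 749 for any other sample. For Arntl the knockout label did not go with a lower level: sedentary muscle had 6.79 ± 0.890 CPM with vehicle and 13.2 ± 3.28 CPM under the knockout label (SD, n = 5 each). In trained muscle it was 31.6 ± 56.3 CPM with vehicle (n = 5, with 132 CPM in vehicle trained 2) and 10.9 ± 4.45 CPM in the group labelled knockout (n = 3). Which exons those counts come from is not given in the sources used here, so they do not check the deletion, and the groups are called by their labels. The 12 muscle fibre markers summed to between 64000 and 106000 CPM in each of the 18 samples. Ckm alone, the muscle creatine kinase, reached at least 10200 CPM in every library.

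Smpdl3b (ENSMUSG00000028885) was the most abundant of the 4 genes. In vehicle sedentary muscle its level was 5.34, 5.52, 5.01, 3.82 and 4.34 CPM in libraries 1 to 5. In knockout sedentary muscle it was 0.316, 0.399, 0.783, 0.608 and 0.406 CPM. The lowest vehicle library was well above the highest library labelled knockout, so the sedentary groups did not overlap. The means were 4.80 ± 0.713 and 0.503 ± 0.190 CPM (SD, n = 5 each), which puts the group labelled knockout at 10.5% of vehicle, or 9.56-fold lower. In vehicle trained muscle the level was 3.52, 0.793, 4.31, 5.07 and 4.23 CPM, and in knockout trained muscle 0.712, 0.917, 1.26, 0.942 and 0.891 CPM. The low vehicle value is that of vehicle trained 2, the library that stands apart, and it lies inside the range of the trained libraries labelled knockout. The trained means were 3.58 ± 1.65 (n = 5) and 0.940 ± 0.126 CPM (n = 3), or 26.2% of vehicle. Without vehicle trained 2 that share was 22.0%.

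Muc4 (ENSMUSG00000118672) was lower in every library labelled knockout than in any vehicle library of the same training state. Its level was 1.78, 0.931, 2.25, 1.25 and 1.28 CPM in vehicle sedentary muscle. In knockout sedentary muscle it was 0.211, 0.332, 0, 0.0869 and 0 CPM. The 2 libraries with no count, knockout sedentary 3 and 5, allow levels of up to 0.235 and 0.203 CPM (3 counts of each total, counting error only). The sedentary means were 1.5 ± 0.516 and 0.126 ± 0.144 CPM, so the group labelled knockout stood at 8.41% of vehicle, 11.9-fold lower. Without knockout sedentary 2 that share was 4.97%, so 1 library with few counts sets much of it. Trained muscle gave 1.08, 1.59, 1.85, 2.11 and 1.59 CPM with vehicle and 0.356, 0.153, 0.841, 0.283 and 0.0810 CPM under the knockout label. The trained means were 1.64 ± 0.381 (n = 5) and 0.311 ± 0.154 CPM (n = 3), or 19.0% of vehicle. For Muc4, vehicle trained 2 lay in the middle of its group.

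Themis3 (ENSMUSG00000024105) had a level of 2.01, 2.26, 1.88, 1.25 and 1.34 CPM in vehicle sedentary muscle and 0.0527, 0.266, 0.235, 0.261 and 0.0677 CPM in knockout sedentary muscle. No library labelled knockout had more than 4 counts there, and the groups did not overlap. The means were 1.75 ± 0.436 and 0.176 ± 0.107 CPM, or 10.1% of vehicle and 9.92-fold lower. In vehicle trained muscle the level was 2.37, 0, 1.97, 0.797 and 2.84 CPM, and in knockout trained muscle 0.712, 0.306, 0.420, 0.0942 and 0.162 CPM. The library at 0 is again vehicle trained 2, where a count of 0 allows up to 0.198 CPM, and it lay below the 3 samples labelled knockout, so the trained groups overlapped. The trained means were 1.60 ± 1.17 (n = 5) and 0.333 ± 0.0610 CPM (n = 3), or 20.9% of vehicle. That share was 16.7% without vehicle trained 2 and 26.0% without vehicle trained 5.

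Opn1mw (ENSMUSG00000031394) had the lowest mean of the 4 genes in every group except vehicle trained muscle, where it lay above Muc4 and Themis3. Its level was 0.773, 1.06, 0.888, 0.298 and 0.489 CPM in vehicle sedentary muscle and 0.316, 0.0664, 0.0783, 0 and 0 CPM in knockout sedentary muscle. Knockout sedentary 1, with 6 counts, lay above vehicle sedentary 4, so these groups overlapped. The sedentary means were 0.702 ± 0.308 and 0.0922 ± 0.130 CPM, or 13.1% of vehicle, and 5.15% without knockout sedentary 1. In vehicle trained muscle the level was 1.51, 2.44, 1.11, 1.37 and 2.25 CPM, each above every vehicle sedentary library. In knockout trained muscle it was 0.267, 0.229, 0, 0 and 0.0810 CPM, with at most 3 counts in a library. The trained groups did not overlap, and vehicle trained 2 was the highest of all libraries. The 4 libraries labelled knockout with no count allow levels of up to 0.203 to 0.283 CPM each. The trained means were 1.74 ± 0.580 (n = 5) and 0.134 ± 0.0944 CPM (n = 3), or 7.75% of vehicle. The summed counts were 134 with vehicle and 7 under the knockout label, and per count sequenced the ratio was 14.5 with an exact conditional 95% interval of 6.86 to 36.8, which covers counting error only.

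**Figure D1:**
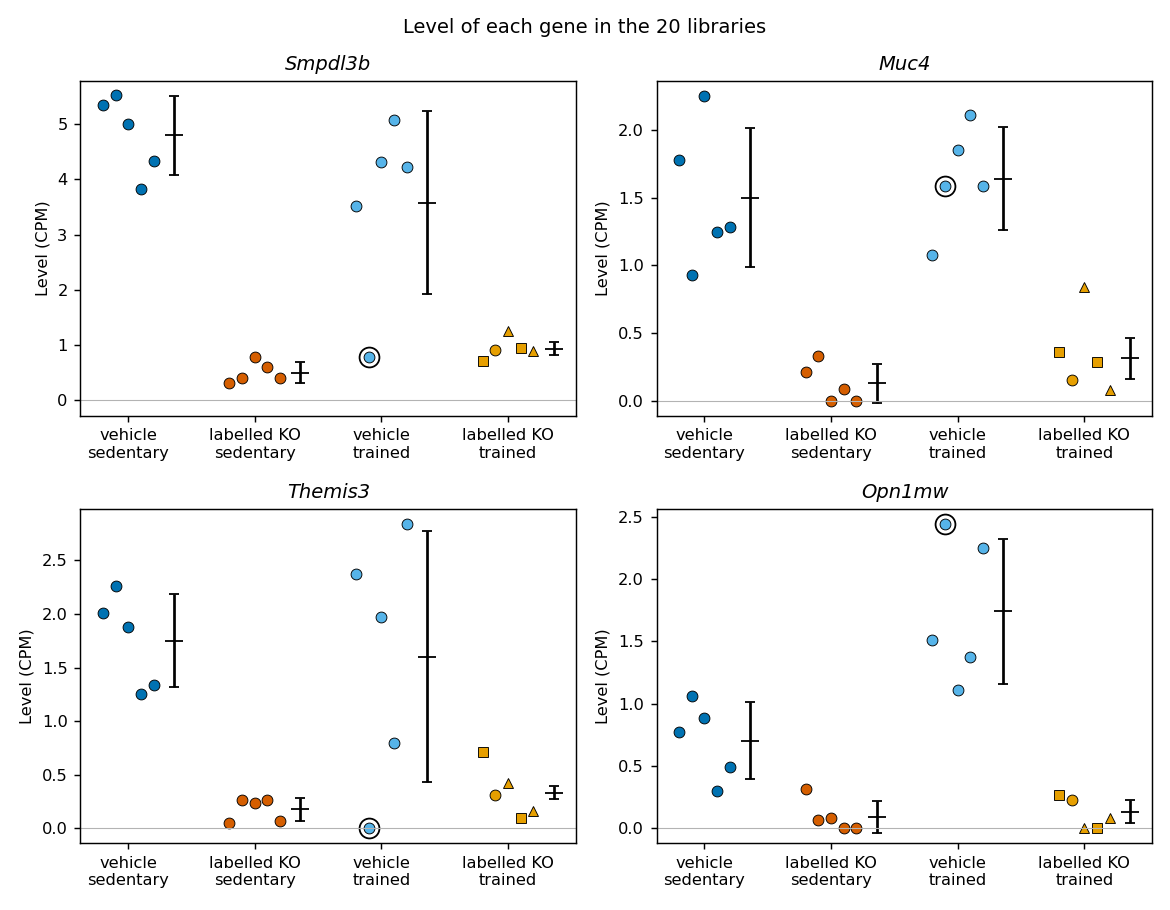
Level of each gene (CPM, linear axis from the deposited estimated counts) in each of the 20 libraries by group. Points are libraries, the ringed point is vehicle trained 2, squares and triangles mark the 2 pairs of knockout trained libraries counted as 1 sample each, and bars show mean ± SD; within a training state the vehicle points lie above the points labelled knockout, except for the ringed point in Smpdl3b and Themis3 and for 1 pair of sedentary libraries in Opn1mw.

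Counted over the 4 genes, the vehicle and knockout-labelled samples did not overlap for 3 genes in sedentary muscle and for 2 in trained muscle. Among all tested genes, 3.77% were lower without overlap in sedentary muscle and 3.99% in trained muscle. Since the genes were chosen on these contrasts, nothing is read from that difference. The fitted log2 changes from vehicle to knockout label in sedentary muscle were -3.33 (SE 0.380) for Smpdl3b, -3.47 (SE 0.520) for Muc4, -3.38 (SE 0.701) for Themis3 and -2.70 (SE 0.619) for Opn1mw. In trained muscle they were -1.86 (SE 0.413), -2.27 (SE 0.529), -2.18 (SE 0.737) and -3.72 (SE 0.673) in the same order. Smpdl3b, Muc4 and Themis3 thus had the smaller fitted loss in trained muscle and Opn1mw the larger, but for Opn1mw this turned round without knockout sedentary 1. In whole muscle, fewer cells of a type and less RNA per cell cannot be told apart.

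All 4 genes were weakly expressed even with vehicle. By level in vehicle sedentary muscle, Smpdl3b stood at the 27.5th percentile of the tested genes, Themis3 at the 12.6th, Muc4 at the 10.6th and Opn1mw at the 1.48th. Per kilobase of the longest annotated transcript the order was different, because these transcripts run from 1233 bases (Opn1mw) to 11277 bases (Muc4), with 2006 for Smpdl3b and 2544 for Themis3. The mean level per kilobase in vehicle sedentary muscle was 2.40 CPM for Smpdl3b, 0.688 for Themis3, 0.570 for Opn1mw and 0.133 for Muc4. In vehicle trained muscle it was 1.79, 0.627, 1.41 and 0.145 CPM per kilobase in that order, so Opn1mw stood above Themis3 there. Relative to their means, the spreads of Themis3 and Opn1mw are wide enough that their order in sedentary muscle is within the SD.

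Training was not the contrast on which the genes were chosen, but it shares libraries with it, so its tests are not independent of that choice. By edgeR's quasi-likelihood test, 0 of the 4 genes passed the threshold for training under either label. For Opn1mw nothing is read from this, for the reason given below. Of all tested genes, 0.0% passed in vehicle muscle and 0.0% in muscle labelled knockout. At an unadjusted p under 0.05 the shares were 15.2% and 9.71% of genes, DESeq2 called 15 genes (0.104%) and 198 genes (1.38%), and limma 0 and 0. Without vehicle trained 2, edgeR called 0 genes in vehicle muscle and 121 genes (0.843%) in muscle labelled knockout, none of the 4 among them.

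Opn1mw had the largest difference with training in vehicle muscle. Its mean was 0.702 ± 0.308 CPM in sedentary and 1.74 ± 0.580 CPM in trained muscle (n = 5 each), 2.47-fold higher, and the groups did not overlap. Opn1mw passed the filter on low values through the group where it is high: all 5 vehicle trained libraries reached 1 CPM, and of the others only vehicle sedentary 2 did. The difference is therefore a description. Nothing is read from the lack of overlap, which 0.244% of all tested genes showed in the same direction, or from the adjusted p-values given below. The log2 difference was 1.35 (SE 0.448), with an adjusted p of 0.272 by edgeR, and 1.33 with an adjusted p of 0.326 when no filter was applied. Without vehicle trained 2 the difference was 2.22-fold and the log2 difference 1.17 (edgeR adjusted p = 0.358), and 0.557% of all genes were then higher without overlap. Over all settings its adjusted p lay between 0.114 and 0.516. In muscle labelled knockout the log2 difference of Opn1mw was 0.33 (SE 0.877, edgeR adjusted p = 0.986), at no more than 6 counts in a library.

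Smpdl3b, Muc4 and Themis3 did not pass the test for training in vehicle muscle, and their groups overlapped. Their log2 differences there were -0.39 (SE 0.315) for Smpdl3b, 0.18 (SE 0.388) for Muc4 and -0.09 (SE 0.538) for Themis3, with edgeR adjusted p of 0.526, 0.825 and 0.939. Two-sided exact permutation tests gave p of 0.159, 0.556 and 0.651 in that order. Vehicle trained 2 set much of the values of Smpdl3b and Themis3: without it they were -0.13 and 0.23. In muscle labelled knockout all 3 had higher means after training. Smpdl3b went from 0.503 to 0.940 CPM (1.87-fold, log2 1.08, SE 0.449), with an adjusted p of 0.437 by edgeR. Its 3 averaged samples did not overlap the sedentary ones, a state found for 2.1% of genes in the higher direction, whereas its single libraries did overlap. Themis3 went from 0.176 to 0.333 CPM (log2 1.11, SE 0.883, edgeR adjusted p = 0.809), and its single libraries overlapped too. Muc4 went from 0.126 to 0.311 CPM (log2 1.37, SE 0.650, edgeR adjusted p = 0.511), and its samples overlapped. Exact permutation tests under the knockout label gave unadjusted p of 0.0357 for Smpdl3b, 0.179 for Muc4 and 0.0357 for Themis3. The 0.0357 is the smallest p that this test can give for 3 against 5 samples, and it rests on the averaged pairs.

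The difference between the training effects is also the difference between the knockout effects in the trained and the sedentary state. It is made of the contrasts on which the genes were chosen, so the values of the 4 genes are a description, with no test. Of all genes, 0.0% passed for this interaction by edgeR, with 7.49% at an unadjusted p under 0.05 and 26 genes (0.181%) called by DESeq2. The interaction of Smpdl3b was 1.47 on the log2 scale (SE 0.548), and 1.23 (SE 0.354) without vehicle trained 2. It was 1.20 for Muc4 (SE 0.751) and 1.20 for Themis3 (SE 1.03), and -1.02 for Opn1mw (SE 1.03). The estimates of Themis3 and Opn1mw were about as large as their SE. The sign for Opn1mw was opposite to that of the other genes and depends on 1 library with 6 counts: without knockout sedentary 1 it was 0.31.

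**Figure D2:**
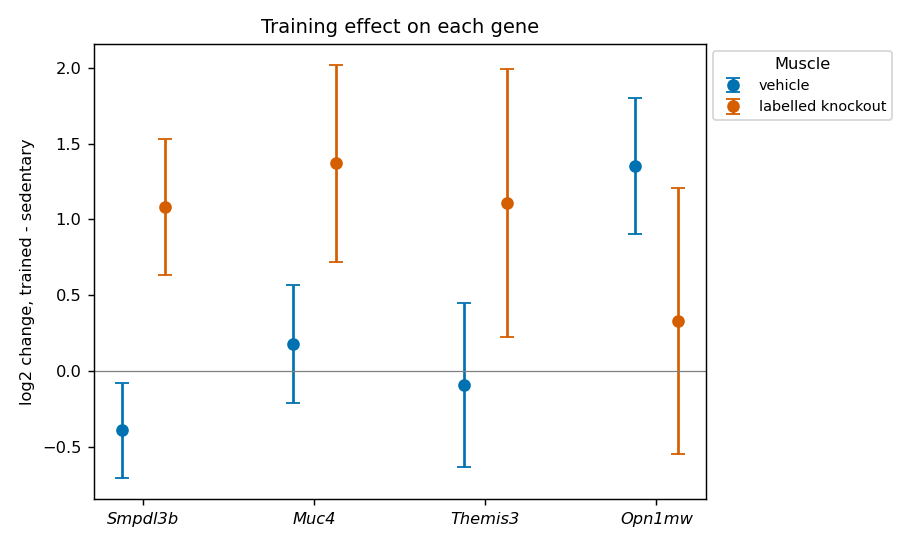
Fitted log2 change with training (trained minus sedentary, y axis) of each gene in vehicle muscle (n = 5 against 5) and in muscle labelled knockout (n = 3 against 5), with bars of 1 SE. Smpdl3b, Muc4 and Themis3 have values near 0 with vehicle and between 1.08 and 1.37 under the knockout label. Opn1mw has 1.35 with vehicle and 0.33 under the knockout label. No adjusted p is under 0.05, and nothing is read from that of Opn1mw.

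The 4 genes were next set beside genes that share their pathways, from lists built on function. None of the related genes passed the test between vehicle and knockout label by edgeR in either training state. Among all tested genes, 2.33% passed in sedentary and 3.29% in trained muscle (1.31% and 1.3% as lower). At an unadjusted p under 0.05 the shares were 9.81% and 17.2%. DESeq2 called 3.74% and 6.32%, limma 2.33% and 3.0%, and edgeR without vehicle trained 2 called 6.98% and 8.66%. The median log2 change of all genes was 0.01 and -0.03. Around Smpdl3b, 28 of 36 listed enzymes of sphingomyelin, ceramide and sphingosine metabolism were tested. Their median log2 change was -0.02 in sedentary muscle, with 2 genes at an unadjusted p under 0.05, and 0 called by DESeq2 or limma. In trained muscle the median was -0.26, with 9 genes at an unadjusted p under 0.05, 3 called by DESeq2 and 0 by limma. The nearest paralog, Smpdl3a, an enzyme of the same subfamily, had a mean of 107 ± 8.89 CPM in vehicle and 119 ± 10.8 CPM in knockout sedentary muscle (log2 0.10, SE 0.099, edgeR adjusted p = 0.929). These enzymes lay between -0.35 and 0.48 in sedentary muscle, where Smpdl3b had -3.33. Smpd1, the lysosomal acid sphingomyelinase, had 59.5 ± 3.28 and 51.2 ± 4.97 CPM (log2 -0.27, SE 0.130, edgeR adjusted p = 0.508).

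Leaving out vehicle trained 2 changed the calls of sphingolipid enzymes more than their log2 changes. Without vehicle trained 2, 3 of these enzymes passed by edgeR in trained muscle: Sgpp1 (sphingosine-1-phosphate phosphatase, log2 -0.45, adjusted p = 0.0129), Asah1 (acid ceramidase, -0.45, 0.0423) and Sphk2 (a sphingosine kinase, 0.44, 0.0406). With all samples their log2 changes were -0.40, -0.41 and 0.40. In sedentary muscle, which does not hold that library, 2 passed in the same fit, Asah2 (neutral ceramidase, log2 0.40, adjusted p = 0.00451 by edgeR) and Smpd1 (-0.27, 0.0244). Of all tested genes, 8.66% passed in trained and 6.98% in sedentary muscle in that fit, so nothing is read from these counts. Sgms2, a sphingomyelin synthase, was called in trained muscle by DESeq2 (log2 -1.34, adjusted p = 0.0441) and not by edgeR (log2 -1.33, SE 0.442, adjusted p = 0.121), at 3.47 ± 1.85 CPM with vehicle (n = 5) and 1.35 ± 0.0885 CPM under the knockout label (n = 3). Cerk, the ceramide kinase, had -0.69 there and passed by edgeR with the 20 libraries kept separate (log2 -0.74, adjusted p = 0.0365).

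Around Muc4, 6 of 26 listed mucins, ERBB receptors and their ligands were expressed enough to test, and none of these 6 is a mucin. The receptor Erbb2, which the MUC4 protein can bind, had 3.50 ± 0.498 CPM in vehicle and 3.09 ± 0.421 CPM in knockout sedentary muscle (log2 -0.23, SE 0.181, edgeR adjusted p = 0.870). In sedentary muscle 0 of the 6 reached an unadjusted p under 0.05, and the median log2 change was -0.14. In trained muscle 1 did, the receptor Egfr, with 50.7 ± 31.3 CPM in vehicle (n = 5) and 21.4 ± 3.47 CPM under the knockout label (n = 3). Its log2 change was -1.22 (SE 0.348, edgeR adjusted p = 0.0639). DESeq2 called it, limma did not, and edgeR called it without vehicle trained 2 (log2 -0.72, adjusted p = 0.0243).

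Around Themis3, 11 of 21 listed THEMIS family and T cell receptor signalling genes were tested. Themis2, the relative expressed in B cells and macrophages, had 2.84 ± 0.983 and 2.69 ± 0.557 CPM in vehicle and knockout sedentary muscle (log2 -0.13, SE 0.313, edgeR adjusted p = 0.996). In trained muscle its log2 change was -0.03. The list had 1 gene at an unadjusted p under 0.05 in sedentary muscle (Lcp2, an adaptor of T cells and myeloid cells, log2 0.86, edgeR adjusted p = 0.425) and 0 in trained muscle. DESeq2 and limma called none, and the medians were 0.13 and -0.02. Around Opn1mw, 7 of 36 listed opsin and phototransduction genes were tested, with 1 and 0 genes at an unadjusted p under 0.05, 0 called by DESeq2 or limma, and medians of 0.03 and 0.24. The gene at that unadjusted p was Rdh5, a retinol dehydrogenase (log2 0.52, SE 0.215, edgeR adjusted p = 0.380). Cnga3, a subunit of the cone channel, had 1.45 ± 0.290 and 2.22 ± 0.380 CPM in vehicle and knockout sedentary muscle (log2 0.56, SE 0.324, edgeR adjusted p = 0.687).

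**Figure D3:**
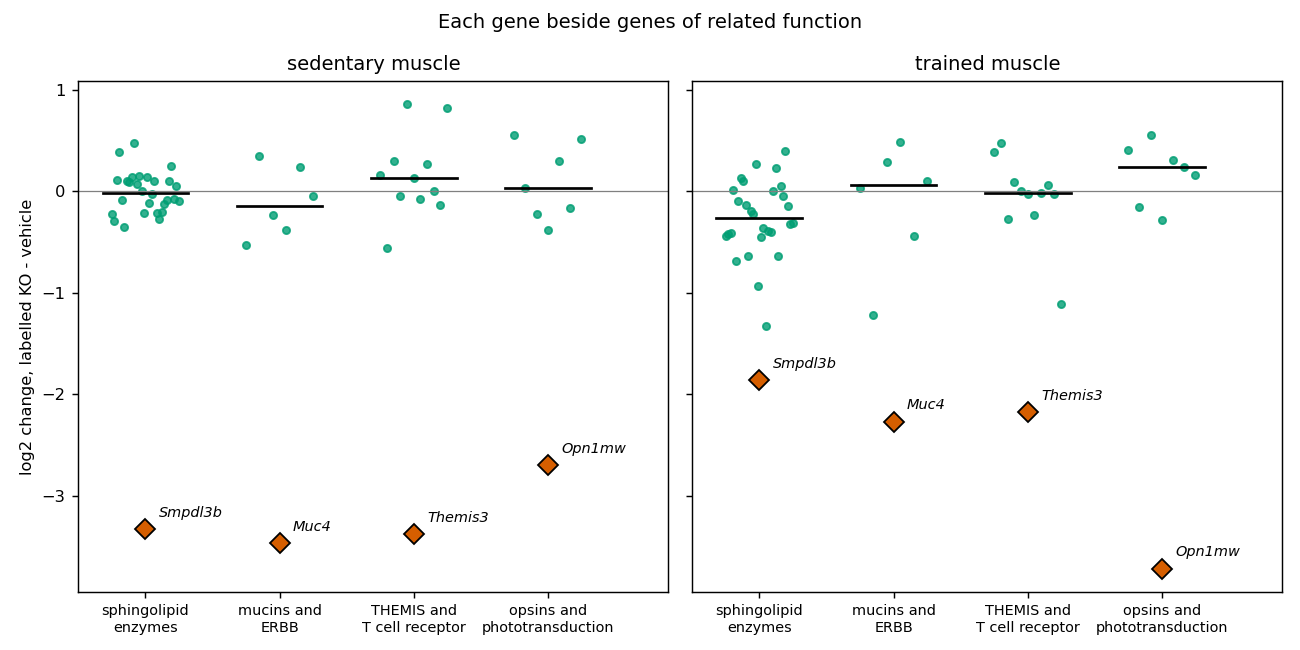
Fitted log2 change from vehicle to knockout label (y axis) of every tested gene of the 4 related lists (dots, with the list median as a line) and of the 4 genes described here (diamonds), in sedentary muscle on the left and trained muscle on the right. The diamonds lie at -2.70 or below in sedentary muscle, where the listed genes lie between -0.56 and 0.86; in trained muscle the lowest listed gene lies at -1.33.

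The level of cell types linked to these genes was read from marker lists in the same libraries. For Themis3 the link to T cells is only through its relative THEMIS, and whether T cells make Themis3 is not shown here. The 11 T cell markers analysed, of 12 listed, summed in sedentary muscle to 2.55 to 4.23 CPM with vehicle and 2.61 to 6.19 CPM under the knockout label, and to 1.78 to 3.70 and 2.62 to 7.26 CPM in trained muscle. This sum overlapped between labels in each state, whereas Themis3 was lower under the knockout label, and 1 of the 11 markers was at 0 in all vehicle trained libraries. Of 11 photoreceptor markers 3 were analysed and none was expressed enough to test. Their sum in sedentary muscle was 0.333 to 0.794 CPM with vehicle and 0 to 0.399 CPM under the knockout label, and 0.264 to 0.925 and 0.382 to 0.704 CPM in trained muscle. Among them Opn1sw, the other cone opsin of the mouse, reached at most 0.336 CPM in any library. Opn1mw in vehicle trained muscle, at 1.11 to 2.44 CPM, stood above that. In vehicle sedentary muscle it ran from 0.298 to 1.06 CPM, on both sides of that value. Under the knockout label it reached at most 0.316 CPM.

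Of 10 epithelial markers 6 were analysed, and their sum in sedentary muscle was 0.672 to 4.25 CPM with vehicle and 2.69 to 16.9 CPM under the knockout label, while Muc4 was lower under the knockout label. The sum followed Krt18, a keratin that rose there (log2 3.68, edgeR adjusted p = 0.00118), and without it the ranges were 0.183 to 3.87 and 0.685 to 3.85 CPM. In trained muscle the sums were 1.42 to 5.68 and 2.60 to 6.51 CPM. The 10 macrophage markers summed to 60.5 to 252 and 97.6 to 272 CPM in sedentary muscle and to 173 to 454 and 60.9 to 362 CPM in trained muscle, overlapping between labels in each state. In trained muscle the medians of that sum were 330 CPM with vehicle and 121 CPM under the knockout label. All 10 macrophage markers had a negative log2 change there, from -1.82 (Cd68) to -0.55 (Lyz2). Of them 2 had an unadjusted p under 0.05 by edgeR, against 17.2% of all tested genes, and 0 were called by edgeR, DESeq2 or limma. With training in vehicle muscle all 10 had an unadjusted p under 0.05 by edgeR (median log2 1.11), against 15.2% of all tested genes, and 0 were called by these tools. The 10 are markers of 1 cell type and do not count as independent genes. Smpdl3b, a gene also known from macrophages, was lower under that label in both states, and the macrophage part in its level was not tested. In 2 lists the sedentary sums did not overlap, and both followed 1 gene. The adipocyte list summed to 1210 to 1770 CPM with vehicle and 597 to 821 CPM under the knockout label, and without Car3, a carbonic anhydrase also made by muscle fibres, to 225 to 470 and 309 to 388 CPM. The satellite cell list summed to 66.4 to 77.4 and 109 to 131 CPM, and without Sdc4, a syndecan, to 23.1 to 30.9 and 30.1 to 35.0 CPM. The part of any cell type in the levels of the 4 genes was not tested.

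The chromosomal surroundings of the 4 genes were examined to see whether the low level extends to the genes beside them. Among the 3 nearest genes on each side of each gene, 23 were examined and 17 of them tested, and none was called lower under the knockout label in either state. Their median log2 change was 0.08 in sedentary and -0.10 in trained muscle, with ranges of -0.50 to 1.40 and -0.73 to 0.71. The 2 genes next to Smpdl3b were Xkr8, a lipid scramblase, with 1.92 ± 0.515 and 2.39 ± 0.683 CPM in vehicle and knockout sedentary muscle (log2 0.26), and Rpa2, a subunit of replication protein A, with 18.8 ± 1.82 and 20.6 ± 1.93 CPM (log2 0.08). Themis2 lies beyond Rpa2, and Eya3, Ptafr and Ppp1r8 complete that stretch. Beside Muc4, the tested genes Tnk2, Tfrc, Rubcn and Fyttd1 had log2 changes between -0.50 and 0.27 in sedentary muscle, and Tnk2, a kinase gene, passed the edgeR test as lower when vehicle trained 2 was left out (adjusted p = 0.027). Beside Themis3, Rab12 and Ptprm had -0.06 and -0.14.

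The called neighbour was a noncoding gene that changed the other way. Gm36201 (ENSMUSG00000117029), annotated as a lincRNA and separated from Themis3 by 2 genes of the table, had 0.914 ± 0.325 CPM in vehicle and 2.49 ± 0.410 CPM in knockout sedentary muscle (n = 5 each). Its log2 change was 1.40 (SE 0.281, edgeR adjusted p = 0.0083), and its adjusted p lay between 0.000114 and 0.0323 over the other settings tried. In trained muscle it had 1.19 ± 0.365 and 1.92 ± 0.594 CPM (log2 0.71, edgeR adjusted p = 0.251). There 0 of the 17 neighbours passed by edgeR, DESeq2 or limma, and 2 had an unadjusted p under 0.05.

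**Figure D4:**
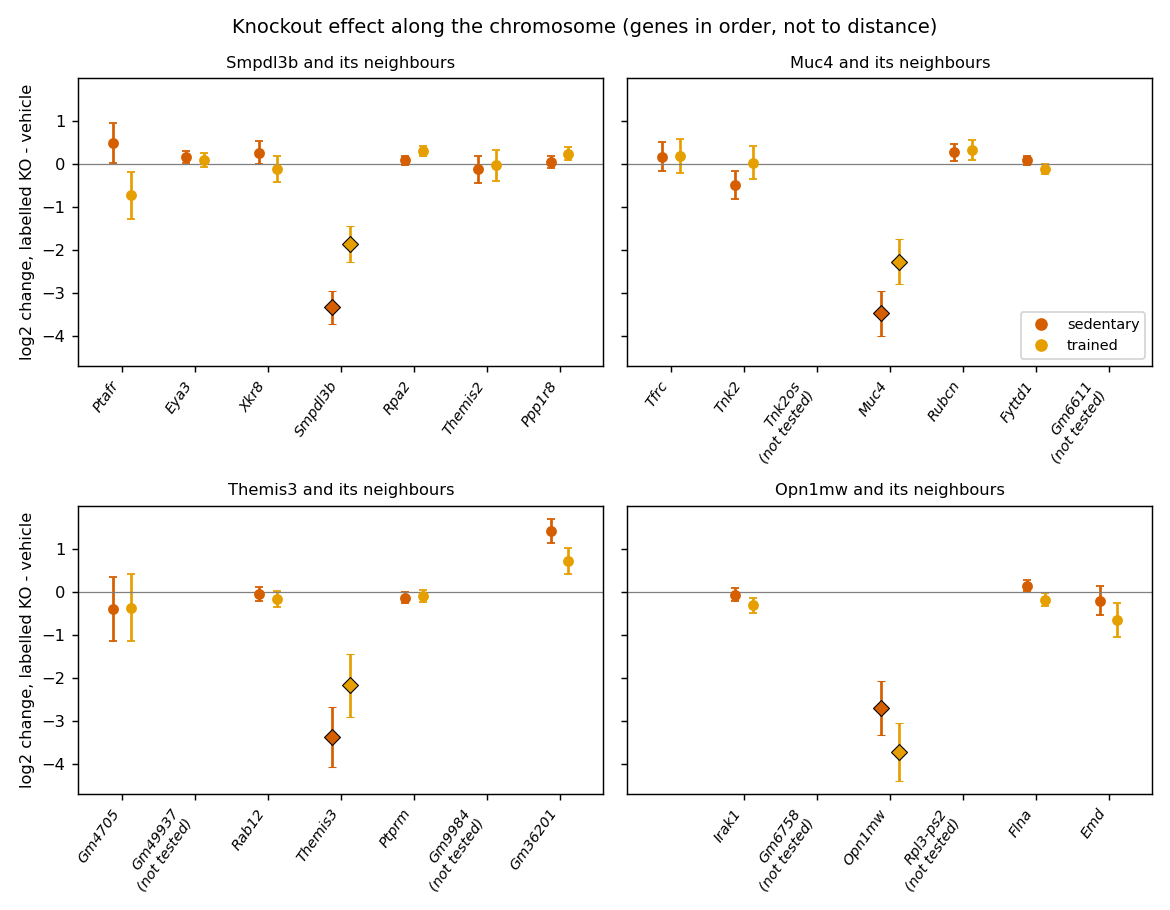
Fitted log2 change from vehicle to knockout label (y axis, bars of 1 SE) of each gene (diamond) and of the examined genes among the 3 nearest on each side (circles), in gene order and not to distance, for sedentary and trained muscle. The diamonds lie at -1.86 or below and the tested neighbours between -0.73 and 1.40.

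Overlapping annotation bears on 2 of the 4 genes. In GENCODE M21 Opn1mw and Muc4 each overlap annotation on the opposite strand, such as the pseudogene Gm6758 for Opn1mw and Muc20 for Muc4, while Smpdl3b and Themis3 overlap no gene. Whether the counting used strand is not given in the sources used here, so reads of the partners cannot be told apart in these counts, and the Opn1mw and Muc4 values are uncertain to that extent. The part of such reads in the values was not tested.

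Genes with the most similar pattern were ranked by Pearson's r of log2(CPM + 1) over the 18 samples. The samples separate by label, so this r mostly reflects the contrast on which the 4 genes were chosen and is a description. Closest to Smpdl3b were Tcap (r = 0.969), Mlf1 (0.963) and Actr3b (0.948). Tcap encodes telethonin, a titin-binding protein of the Z-disc, and its mean was 2260 CPM in vehicle and 637 CPM in knockout sedentary muscle. Closest to Muc4 were the noncoding Gm10032 (0.932), Rai14 (0.911) and Mid1ip1 (0.909), a regulator of fatty acid synthesis whose mean went from 83.0 to 19.5 CPM. Closest to Themis3 were Cacna2d4 (0.932), a calcium channel subunit with 8.86 and 1.14 CPM, Gm10599 (0.929) and Smpdl3b itself (0.910). Closest to Opn1mw were Smyd2 (0.890), Spata6l (0.875) and Dtnb (0.874). Smyd2, a lysine methyltransferase, had 139 CPM in vehicle sedentary, 161 in vehicle trained, 94.7 in knockout sedentary and 107 in knockout trained muscle, the same order as Opn1mw with trained vehicle muscle on top.

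Within the 10 vehicle samples, where the label does not differ, other genes came closest. They were Trim55 (r = 0.994), Pigk (0.992) and Slx4ip (0.991) for Smpdl3b, Mtcp1 (0.934), Necap1 (0.890) and Gm30238 (0.881) for Muc4, Igfn1 (0.953), D11Wsu47e (0.948) and Lurap1 (0.942) for Themis3, and Slc52a3 (0.970), Gm9512 (0.887) and Tent2-ps1 (0.886) for Opn1mw. None of these 12 passed the edgeR test between vehicle and knockout label in either state. For Smpdl3b and Themis3 the likeness goes with the library that stands apart: Trim55 had 25.8 CPM in vehicle trained 2 against a vehicle sedentary mean of 76.9, and Igfn1 had 7.0 against 30.3.

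Among themselves the 4 genes did not vary together within vehicle muscle in a way that passed the test. Over the 10 vehicle libraries and 6 pairs, the highest Pearson's r was that of Smpdl3b and Themis3 (r = 0.765, permutation p = 0.0584, adjusted 0.350), with a Spearman rank correlation of 0.164 (permutation p = 0.658, adjusted 0.849). Without the 2 libraries farthest from the median of Smpdl3b, vehicle sedentary 2 and vehicle trained 2, r was -0.267, and without vehicle trained 2 alone it was -0.104. This pooled relation rests on vehicle trained 2, where Smpdl3b had 12 counts and Themis3 had 0, while Muc4 with 24 counts and Opn1mw with 37 were not low there. Taken as deviations from the group means, r of this pair was 0.766 (permutation p = 0.0242, adjusted 0.145), and 0.85 without vehicle trained 2 and 4. The 0.85 leaves out both libraries at once and uses group means that still include vehicle trained 2. It therefore cannot tell whether the relation rests on that library on that scale. The other 5 pairs had r between -0.523 and 0.133 with adjusted permutation p of at least 0.406. Without the 2 libraries farthest from the median of the first gene, r was 0.842 for Smpdl3b and Muc4 and 0.957 for Themis3 and Opn1mw, and between -0.194 and 0.255 for the other 3, so these values depend on few libraries. The number of vehicle libraries in each training state is below 6, so no r is given within a state.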

How the data were processed

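RNA was sequenced in 20 mouse muscle libraries, 4 groups of 5. Each gene has a deposited estimated count per library, made from the reads by the authors. Of these values 72.0% are whole, and the lowest sum of a gene over all libraries is 10. Per the submitters' processing notes, Partek, STAR 2.7.8a and DESeq2 were used with the builds mm10 and GRCm39, with no role given for either. The counter, annotation and strandedness are not given in the sources used here. RNA was extracted with Trizol and a column kit, per the labels' protocols.

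Estimated counts were rounded to whole numbers, and CPM was computed from each library's total. All 190 pairs of libraries were compared. A pair counted as 1 sample where its noise at 1000 to 10000 counts was under 1.5 times its own noise at 10 to 100 counts, which 2 pairs met; their counts were summed for tests and their CPM averaged. The labels do not say whether libraries are separate animals, so p-values measure only the spread between these samples. Precision is set by the totals, and an interval or a limit from a count of 0 covers counting error only.

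Genes at 1 CPM or above in 5 or more of the 20 libraries (14359 of 21844) were fitted with edgeR 4.0.16 (R 4.3.3) by its quasi-likelihood test with TMM scaling, 4 group means and a shared spread. P-values are two-sided, adjusted by Benjamini-Hochberg over all genes tested, with 0.05 as the threshold. The code was tested on simulated data. DESeq2 1.42.0, limma 3.58.1 on log2(CPM + 1), other scalings and filters, the replicate block and leaving out each sample were the alternatives. Training was also compared for single genes by exact permutation of log2(CPM + 1), and pairs of genes by permutation with 100000 resamples. Motifs and promoters came from RefSeq (GRCm38.p6) and transcript lengths and overlaps from GENCODE M21, in which Muc4 was matched by symbol. Coordinates are those of the RefSeq table only.

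The 4 genes and the related, marker and neighbour lists were chosen with earlier results of these data known. The text names the 4 genes, genes among the 3 nearest of the table on each side of each, the 3 genes most like each over all and over vehicle samples, list genes past the threshold, and Arntl. The other list genes named (Smpdl3a, Smpd1, Erbb2, Egfr, Themis2, Lcp2, Rdh5, Cnga3, those called by an alternative) and single markers (Ckm, Krt18, Opn1sw, Car3, Sdc4, Cd68, Lyz2) were chosen after their values were seen. The blood, Schwann cell and endothelial lists overlapped between labels in sedentary muscle. Some items are not reported here.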

Additional observations from a re-analysis of the deposited data

Results flagged for a closer look

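Opn1mw in knockout sedentary 1 was 0.316 CPM, from 6 counts, against 0 to 0.0783 CPM in the other 4 libraries of that group, a gap too wide for its group by Dixon's criterion. It was the only such value among the 12 groups of 5 samples examined, and chance marks about 1 in 20. Without this library the group labelled knockout stood at 5.15% of vehicle sedentary muscle in place of 13.1%. The cause was not tested.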

How the results depend on the processing

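The share of vehicle at which the 4 genes stood under the knockout label was at most 29.3% under every setting run. Under no setting was any of them called for training, from which nothing is read for Opn1mw. Leaving out 1 sample moved the trained share between 22.0% and 29.3% for Smpdl3b and between 16.7% and 26.0% for Themis3, the lowest values being those without vehicle trained 2.

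Counts over all genes moved more. Genes called between labels were 334 in sedentary and 473 in trained muscle, and with DESeq2 537 and 907. A fit of only the groups compared gave 1177 and 20. Leaving out 1 sample gave 251 to 1002 in sedentary and 177 to 1244 in trained muscle, the highest without vehicle trained 2 and the lowest in trained muscle without the pair knockout trained 3 and 5. With 20 libraries kept separate, 1225 passed in trained muscle, and 980 with a replicate block in addition. The numbers do not pair samples: of 30 same-numbered pairs 11 had a correlation of deviations over 0.1 (range -0.394 to 0.347), and 4 of 20 libraries lay closest to their own number.

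Among sphingolipid enzymes 3 were called in sedentary muscle with only the groups compared and 0 to 2 when 1 sample was left out. In trained muscle 3 were called by DESeq2, 4 with separate libraries, 3 with the replicate block and 0 to 3 when 1 sample was left out. In the mucin and ERBB list Egfr was the 1 gene called in trained muscle by DESeq2, with separate libraries, with the block and without vehicle trained 2, 3 or 5 (0 to 1 over samples left out). Of the neighbours, 2 were called in sedentary muscle with only the groups compared (1 to 2 over samples left out).

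Signs turned for the training effect of Themis3 in vehicle muscle (-0.09; 0.01 without vehicle sedentary 2, 0.23 without vehicle trained 2, with exact permutation p = 0.714, and 0.10 without vehicle trained 4; lowest -0.40, without vehicle trained 5). They also turned for Opn1mw in training under the knockout label (0.33; -0.13 without knockout trained 2, 1.66 without knockout sedentary 1) and in the interaction (-1.02; 0.31 without knockout sedentary 1, -1.48 without knockout trained 2). The correlation of Smpdl3b and Themis3 was -0.104 and that of Themis3 and Opn1mw 0.510 (from -0.210) without vehicle trained 2, and that of Muc4 and Opn1mw -0.039 in deviations from group means. None of the training effects or correlations among these passed a test, and the causes were not tested. At levels of a few counts a library, depth limits what can be said of differences among the libraries labelled knockout.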
